A study of Mus musculus with 2 samples.

Results

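The cells described here are monocytes of the ischemic mouse brain, picked by the RNA of Ly6c2, Plac8 and Chil3. They number 675 of the 22960 cells in the series, 332 of 15050 in replicate 1 (2.21% of cells, exact 95% binomial interval 1.98 to 2.45%) and 343 of 7910 in replicate 2 (4.34%, 3.90 to 4.81%). A barcode counted as a cell with 1000 or more unique molecular identifiers (UMIs, 1 per captured transcript), 500 or more genes detected and no more than 10% of its UMIs mitochondrial. A cell counted as a monocyte with at least 5 UMIs over Ly6c2, Plac8 and Chil3 and at least 2 of these 3 genes detected. It also had to hold fewer than 10 UMIs in 10000 of 6 microglia genes (P2ry12, Tmem119, Sparc, Gpr34, Olfml3 and Siglech), fewer than 3 UMIs of Arg1 and fewer than 50 in 10000 of S100a8 and S100a9. Cells with any UMI of Cd209a or of the T cell genes Cd3e, Cd3d and Trbc2 were left out.

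The study has 1 group of 2 replicate libraries, and no sham or untreated brain. Both libraries, labelled as macrophages, hold CD45+CD11b+CD3-F4/80+ leukocytes, sorted by flow cytometry from the PBS-flushed ischemic brain of Foxp3Egfp mice aged 6 to 8 weeks, which carry a green fluorescent reporter of Foxp3. The labels state that cDNA of stroke mice was pooled for sequencing. They leave unsaid how many animals each replicate holds. The fit takes out the level of each library. The p-values below thus measure how far differences between kinds of cell disagree between these libraries, pooled over 6 kinds. That spread may be technical. The F4/80 gate selects macrophages, and the share of monocytes among the sorted cells is a share of that sort.

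Classical monocytes are made in the bone marrow, leave it through the chemokine receptor Ccr2 and enter injured tissue, where they can turn into macrophages or into cells that resemble dendritic cells. In mice they carry the surface protein Ly6C. A second, patrolling kind has little Ly6C, depends on the nuclear receptor Nr4a1 and stays mostly inside vessels.

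The libraries held 101893367 and 62850768 UMIs. Monocytes had a median of 2567 UMIs and 1039 genes in replicate 1, and 6500 UMIs and 1785 genes in replicate 2, so the first library sees each of them at less depth. In all they hold 1548442 and 2515344 UMIs, and 75 and 9 of them lie under 2000 UMIs. No monocyte barcode is shared by the libraries, which share 31 cell barcodes. Levels below are CPM, the UMIs of a gene per 1000000 UMIs of all cells of that kind in a library, always given for replicate 1 and then replicate 2. Barcodes under 100 UMIs gave the profile of RNA free in the suspension.

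Of the 3 genes that chose the cells, Ly6c2 (chromosome 15, 75108158 to 75111970, GRCm38) encodes the Ly6C surface protein, Plac8 (chromosome 5, 100553725 to 100572245) a small cysteine-rich protein of leukocytes, and Chil3 (chromosome 3, 106147554 to 106167564) the secreted chitinase-like lectin Ym1. Their values describe the choice and are not tested. Ly6c2 stood at 606 and 928 CPM in monocytes, and 72.6% and 83.4% of monocytes held a UMI of it. Plac8 stood at 946 and 1814 CPM, with a UMI in 73.2% and 82.5% of cells. Chil3 stood at 1674 and 3140.3 CPM, with a UMI in 86.4% and 88.9%. All 3 genes were seen together in 107 (32.2%) and 188 (54.8%) of the monocytes. The sum over the genes had a median of 12 UMIs per cell (range 5 to 71) in replicate 1 and 33 UMIs (5 to 179) in replicate 2. Ly6c1, a near-identical neighbour on chromosome 15, had 0 UMIs in the monocytes of both libraries, and how reads shared by such copies were counted is not given.

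Monocytes with the fewest gating UMIs held less Ccr2 than the monocytes as a whole, which had 256 and 399 CPM. With exactly 5 gating UMIs, 41 and 8 cells had 118 and 129 CPM of Ccr2, and the 23 and 11 cells with 4 gating UMIs, just outside, had 89.3 and 77.1 CPM. With 2 UMIs of Arg1, 23 and 17 monocytes had 137 and 424 CPM of Ccr2, against 156 and 136 CPM in the 12 and 10 cells with 3 UMIs. At a microglia score of 8 to 10, 6 and 10 monocytes had 179.7 and 468 CPM, against 101 and 310.5 CPM in the 9 and 6 cells at 10 to 12. Only the step in Arg1 had the outer cells higher in 1 library.

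The name was checked on Ccr2 and Ms4a4c, which the rule did not use. Ccr2 (chromosome 9, 124101950 to 124113557) is the receptor for Ccl2 that takes monocytes out of the marrow. A UMI of it was found in 52.1% and 64.7% of monocytes, against 3.01% and 17.0% of macrophages and 1.34% and 1.51% of microglia. Microglia should lack Ccr2 and were of like depth, with medians of 3757 and 5255 UMIs. Ms4a4c (chromosome 19, 11404770 to 11427246), a membrane protein of the Ms4a family, was found in 51.2% and 77.8% of monocytes, against 6.89% and 26.7% of macrophages and 4.12% and 6.05% of microglia. With every cell thinned to 2000 UMIs, which leaves out 75 and 9 monocytes, Ccr2 was found in 40.5% and 43.7% of monocytes, 1.26% and 8.40% of macrophages and 0.709% and 0.608% of microglia. Both markers are present in the cells that the rule names monocytes.

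Markers of other cells were summed in the monocytes, and some of them are held down by the rule itself. The 5 basophil and mast cell markers were at 0 UMIs in both libraries. The 8 natural killer cell markers summed to 5.17 and 7.16 CPM, the 6 T cell markers to 5.81 and 5.17 CPM and the 7 conventional dendritic cell markers to 18.1 and 15.9 CPM. The rule sets 3 of the T cell markers and Cd209a, a dendritic cell marker, to 0. Outside the rule, the T cell marker Cd3g had 0 UMIs in both libraries and Trac had 0 and 2 UMIs. B cell markers summed to 41.3 and 61.6 CPM and plasmacytoid dendritic cell markers to 12.9 and 7.16 CPM. The 10 neutrophil markers summed to 198 and 225 CPM in monocytes, against 184400 and 205570 CPM in neutrophils. S100a8 and S100a9, which the rule limits in monocytes and which define the neutrophils, are among the 10, so this gap is partly set by the choice of cells. Of the neutrophil markers outside the rule, Mmp8 had 84 and 133 UMIs in the monocytes, Csf3r 56 and 128 UMIs and Mmp9 3 and 42 UMIs. Cxcr2 had 5 and 9 UMIs, Retnlg 2 and 3 UMIs, and Ngp, Camp and Ltf no more than 3 UMIs each. Macrophage RNA was plentiful: the 9 macrophage markers summed to 47348 and 20974 CPM in monocytes, 135534 and 100967 CPM in macrophages, and 81455 and 54089 CPM in the free RNA. No macrophage marker was at 0. The 9 microglia markers summed to 762 and 569 CPM in monocytes, 12516 and 16969 CPM in microglia and 4765 and 9370 CPM in the free RNA. Of these 9 genes, 6 are those that the rule limits in monocytes and requires in microglia, so that gap too is largely set by the choice. How far this RNA comes from the suspension was not tested.

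Monocytes were set first against macrophages, 3989 and 277 cells that hold at most 1 UMI of the gating genes and at least 3 UMIs over Ms4a7, Gpnmb, Mmp12, Fabp5 and Fabp4, with at least 2 of these detected. The comparison asks what else differs between cells low in the microglia genes that do and do not carry the monocyte genes. Whether these macrophages entered the brain from the blood was not tested. Among 8953 genes tested with edgeR, 629 (7.03%) were higher and 344 (3.84%) lower in monocytes, with adjusted p under 0.05. These shares are the background for every count of list genes called against macrophages. The median log2 fold change of all tested genes was -0.01, and 971 of the 973 called genes had the same sign in both libraries. A gene with opposite signs is rarely called from 2 library sums, so this agreement follows largely from the calls. Both kinds of cell were chosen on counts of the same cells, so a call says that the 2 libraries repeat a difference, not that the cells form a population of their own. Without the 136 and 124 monocytes that also hold the macrophage gating genes, 973 genes were higher and 741 lower, and without the library as a block 396 were higher and 111 lower.

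Most genes on the list of classical monocytes were higher in the cells chosen here. Of 22 tested genes in that list, 17 were higher in monocytes than in macrophages, against the background of 7.03%, and none lower, with a median log2 fold change of 2.14. Monocytes were picked for many and macrophages for few UMIs of Ly6c2, Plac8 and Chil3. The direction for genes that go with these is thus partly set by the choice of cells. Vcan, the matrix proteoglycan versican, stood at 73.0 and 94.2 CPM in monocytes, against 1.24 and 5.15 CPM in macrophages (log2 fold change 5.24 ± 0.40, standard error, edgeR adjusted p = 2.59e-06). Ifitm6, an interferon-induced transmembrane protein of myeloid cells, had 169 and 299 CPM in monocytes, against 4.67 and 4.42 CPM (5.44 ± 0.36, edgeR adjusted p = 1.31e-06). For both genes every monocyte value lay above every macrophage value. Hp, haptoglobin, which binds free haemoglobin, had 169 and 408 CPM, against 6.50 and 12.1 CPM (4.85 ± 0.47, edgeR adjusted p = 2.28e-05). These genes are not monocyte genes alone: neutrophils had 894 and 631 CPM of Ifitm6 and 801 and 1362 CPM of Hp.

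The markers that checked the name differed in the same direction. Ccr2 stood at 256 and 399 CPM in monocytes, against 6.11 and 55.2 CPM in macrophages (3.83 ± 0.58, edgeR adjusted p = 0.000634). Ms4a4c stood at 307 and 762 CPM, against 12 and 72.2 CPM (3.86 ± 0.50, edgeR adjusted p = 0.000196). Macrophages of replicate 2 held more of both genes than those of replicate 1, and the ranges still did not overlap. Fn1, fibronectin, had 324 and 488 CPM in monocytes, against 37.8 and 132 CPM (edgeR adjusted p = 0.00596). F13a1, the coagulation factor XIII A chain, did not pass, with 267 and 335 CPM in monocytes, against 104 and 159 CPM (edgeR adjusted p = 0.0581). Csf1r, the receptor for the macrophage growth factor, stood at 239.6 and 244 CPM in monocytes and 176 and 261 CPM in macrophages (edgeR adjusted p = 0.919).

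**Figure D1:**
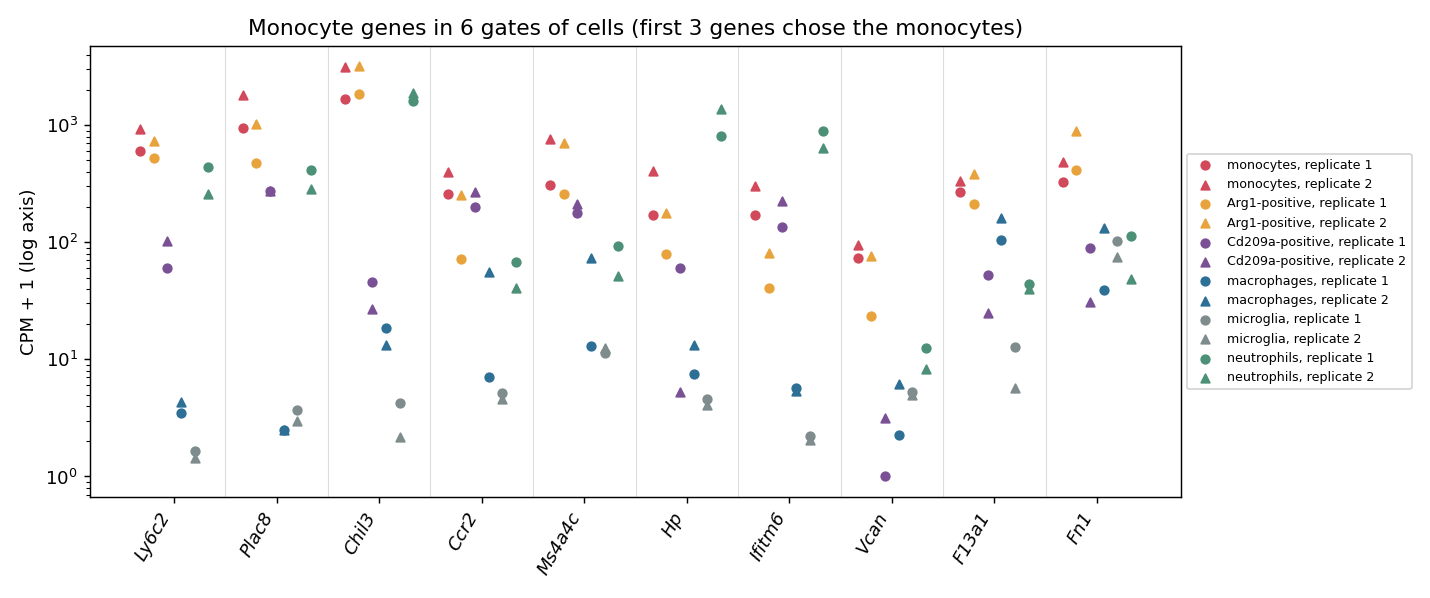
Levels of 10 monocyte genes (CPM + 1, log axis) in 6 kinds of cell, with circles for replicate 1 and triangles for replicate 2. Ly6c2, Plac8 and Chil3 chose the monocytes, while Ccr2 at 256 and 399 CPM and Vcan at 73.0 and 94.2 CPM in monocytes were not used in the choice, and neutrophils held more Hp and Ifitm6 than monocytes did.

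Genes for moving into tissue followed. Of 25 tested adhesion and trafficking genes, 14 were higher in monocytes and 1 lower (median log2 fold change 1.07). Fpr2, a receptor for formylated peptides, had 42.6 and 27.4 CPM in monocytes, against 4.02 and 3.31 CPM in macrophages (3.13 ± 0.40). Cd44, the receptor for hyaluronan, had 293 and 367 CPM, against 96.8 and 93.1 CPM (1.70 ± 0.38). Itgal, a subunit of the integrin LFA-1, had 58.1 and 83.9 CPM, against 11.7 and 10.3 CPM (2.59 ± 0.39). These 3 passed the edgeR test at adjusted p = 0.000187, 0.00908 and 0.000634. The selectin ligand Selplg did not pass, with 132 and 174 CPM in monocytes, against 98.2 and 112 CPM in macrophages.

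Of 29 tested transcription factors, 9 were higher and none lower (median 0.48). Id3, an inhibitor of helix-loop-helix factors, had 56.2 and 86.3 CPM in monocytes, against 16.8 and 18.4 CPM in macrophages (1.99 ± 0.30, edgeR adjusted p = 0.000668). Cebpd, a factor induced in acute inflammation, had 52.3 and 86.3 CPM, against 14.7 and 29.8 CPM (1.58 ± 0.30, edgeR adjusted p = 0.00331). Spi1, which encodes the myeloid factor PU.1, had 379 and 535 CPM in monocytes, against 254 and 378 CPM (edgeR adjusted p = 0.186), and did not pass the test.

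Genes of the patrolling, Ly6C-low kind were also higher than in macrophages, although most of the cells hold Ly6c2. Of 13 tested genes, 9 were higher, against 7.03% of all genes, and none lower, with a median log2 fold change of 2.46. Summed over the 13 genes, the level was 735 and 974 CPM in monocytes, against 371 and 515 CPM in macrophages. Other kinds of cell held more, with 2658 and 2535 CPM in microglia and 1900 and 2156 CPM in neutrophils. The free RNA, at 957 and 1441 CPM, also lay above the monocytes. Nr4a1 had 254 and 389 CPM in monocytes, against 52.3 and 92.4 CPM in macrophages (2.11 ± 0.30, edgeR adjusted p = 0.000437). Most others were rare: Ear2, a ribonuclease, had 18.1 and 33.8 CPM, against 1.44 and 3.31 CPM, and Treml4 had 12.3 and 24.3 CPM, against 3.66 and 8.84 CPM. Cx3cr1, the fractalkine receptor that is high in patrolling monocytes, had 150.5 and 146 CPM in monocytes, against 179 and 262 CPM, and did not pass (edgeR adjusted p = 0.220). A UMI of Treml4, Ace or Ear2 was held by 32 (9.64%) and 54 (15.7%) monocytes. In those cells Nr4a1 stood at 387 and 862 CPM and Ly6c2 at 536 and 625 CPM, against 254 and 389 CPM and 606 and 928 CPM in all monocytes. In the 91 and 57 monocytes without a Ly6c2 UMI, Nr4a1 stood at 443 and 721 CPM and Ear2 at 60.8 and 165 CPM.

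Interferon-stimulated genes were higher in monocytes almost without exception. These genes answer type I interferon through a protein complex that binds a site of repeated GAAA in their promoters, and many of their products block viruses. Of 33 tested genes, 32 were higher in monocytes than in macrophages, against 7.03% of all genes, with a median log2 fold change of 2.29. The exception was Bst2, the virus tether tetherin, with 897 and 1028 CPM in monocytes and 1021 and 1159 CPM in macrophages. The count was also 32 without the monocytes that hold macrophage genes, without cycling monocytes, without Xist-positive cells, in cells of at least 2000 UMIs and with DESeq2, and it was 30 without the library block. Summed over the 33 genes, the level was 11596 and 17182 CPM in monocytes, against 2558 and 4248 CPM in macrophages, 3645 and 3279 CPM in microglia and 3342 and 4585 CPM in the free RNA.

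Promoter stretches of 4 of these genes are shown because they hold the GAAA repeat that the interferon complex binds. Each is 100 bases long and lies within the 250 bases before the RefSeq gene start (GRCm38.p6), read in the direction of the gene, with capitals for every place where GAAA is followed, after any 2 bases, by GAAA, on either strand (on the opposite strand it reads TTTC, any 2 bases, TTTC). Isg15 lies at chr4:156200836-156200935 on the minus strand, Ifit1 at chr19:34640749-34640848 on the plus strand, Ifit3 at chr19:34583345-34583444 on the plus strand and Cxcl10 at chr5:92349040-92349139 on the minus strand.
Isg15: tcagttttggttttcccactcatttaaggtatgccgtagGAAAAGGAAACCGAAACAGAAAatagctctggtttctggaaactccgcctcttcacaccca
Ifit1: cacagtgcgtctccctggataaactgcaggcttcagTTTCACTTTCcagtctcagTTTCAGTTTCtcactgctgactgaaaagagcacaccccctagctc
Ifit3: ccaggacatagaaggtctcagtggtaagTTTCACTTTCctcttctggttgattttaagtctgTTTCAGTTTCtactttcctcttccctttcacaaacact
Cxcl10: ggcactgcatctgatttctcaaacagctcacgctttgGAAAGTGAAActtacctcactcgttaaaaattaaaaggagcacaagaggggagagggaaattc
Isg15 holds 3 overlapping matches, Ifit1 and Ifit3 hold 2 each and Cxcl10 holds 1. Within 250 bases before the start, 11 of the 24 interferon-stimulated genes with a promoter in the table (45.8%) held a match, as did 936 of all 27025 promoters (3.46%). None of the promoters of Ly6c2, Plac8, Chil3, Ccr2 and Ms4a4c held 1. A match describes letters and not binding.

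Isg15, a ubiquitin-like protein that is coupled to other proteins, stood at 282 and 781 CPM in monocytes, against 27.0 and 76.6 CPM in macrophages (3.29 ± 0.30, edgeR adjusted p = 1.66e-05). Ifit1 and Ifit3 encode proteins that act on viral RNA. Ifit1 stood at 79.4 and 116 CPM, against 9.28 and 12.9 CPM, and Ifit3 at 107 and 272 CPM, against 13.7 and 33.5 CPM. Cxcl10, a chemokine that draws T cells, stood at 219.6 and 561 CPM, against 26.1 and 27.6 CPM (3.61 ± 0.41, edgeR adjusted p = 7.62e-05). In all 4 genes the lower monocyte value lay above the higher macrophage value. Mx1, a GTPase against influenza virus, had 61.4 and 97.8 CPM in monocytes, against 5.13 and 6.99 CPM (3.64 ± 0.26, edgeR adjusted p = 1.74e-06). Oasl1, of the oligoadenylate synthase family, had 62.6 and 146 CPM, against 6.99 and 7.36 CPM (3.59 ± 0.36, edgeR adjusted p = 3.02e-05). Reads shared within the Ifit, Oas and Ifi200 families cannot be told apart here.

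The interferon genes were not even across the monocytes. Per 10000 UMIs of a cell, they had a median of 130 UMIs in replicate 1 (range 3.06 to 844) and 141 UMIs in replicate 2 (4.51 to 1032). Their sum was 16864 and 20561 CPM in monocytes with all 3 gating genes and 9624 and 13407 CPM in those with 2 of them. It was lowest, among the subsets described here, in the 89 and 60 monocytes without a Plac8 UMI, at 5443 and 8366 CPM. Those cells also held 69316 and 47559.9 CPM of Apoe and 89.3 and 223 CPM of Ccr2, against 36663 and 16833 CPM and 256 and 399 CPM in all monocytes.

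**Figure D2:**
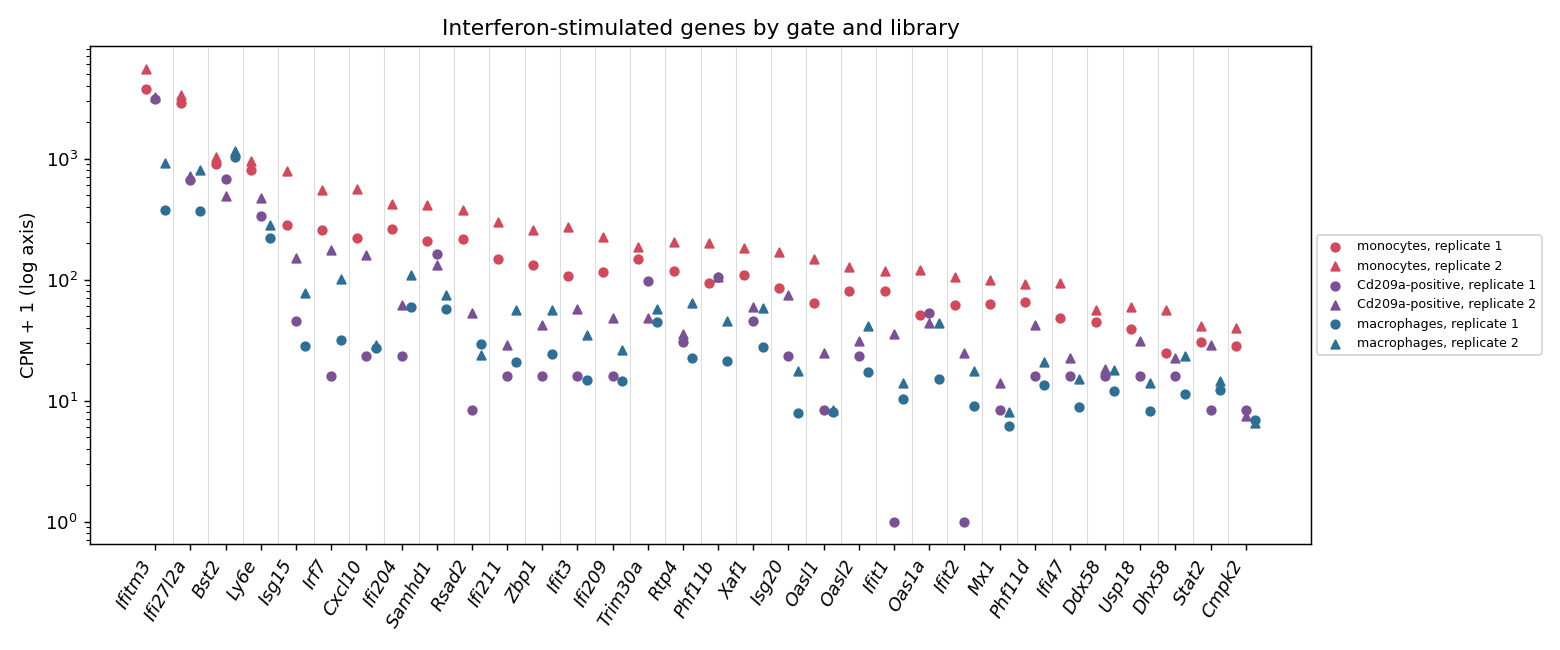
Levels of 32 interferon-stimulated genes (CPM + 1, log axis) in monocytes, Cd209a-positive cells and macrophages, with circles for replicate 1 and triangles for replicate 2. In 31 of the 32 genes plotted monocytes were higher than macrophages with edgeR adjusted p under 0.05, and Bst2 was the exception.

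Inflammatory mediators rose in part. Of 21 tested cytokine and inflammasome genes, 10 were higher in monocytes and 1 lower (median 1.13). Il1b, the inflammatory cytokine interleukin 1 beta, stood at 1076 and 2216 CPM in monocytes, against 49.4 and 366 CPM in macrophages (3.30 ± 0.47, edgeR adjusted p = 0.000431). Il1rn, which encodes the antagonist of its receptor, stood at 118 and 210.3 CPM, against 11.6 and 35.3 CPM (2.89 ± 0.38, edgeR adjusted p = 0.000214). The cytokine and its antagonist were thus both higher. Acod1, which makes itaconate, had 76.9 and 45.3 CPM in monocytes, against 13.7 and 13.6 CPM (2.02 ± 0.45, edgeR adjusted p = 0.0105). Il18bp, a binding protein that blocks interleukin 18, was the gene that fell, with 68.5 and 18.7 CPM in monocytes, against 125 and 33.5 CPM (-0.97 ± 0.21). The Il18bp call was lost under 3 of 14 alternatives (edgeR adjusted p up to 0.447), and its log2 difference ran between -2.96 without the monocytes that hold macrophage genes and -0.58 without cycling monocytes. The Acod1 call was lost without the monocytes that hold macrophage genes (log2 difference 0.84), and the Il1b call without the library block (edgeR adjusted p = 0.0574). Tnf had 112 and 99.0 CPM in monocytes and 58.1 and 80.6 CPM in macrophages and did not pass.

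Of 18 tested chemokines, 8 were higher and 1 lower (median 1.18). The Ccr2 ligand Ccl12 stood at 720.1 and 283 CPM in monocytes, against 83.4 and 106 CPM in macrophages (2.18 ± 0.30, edgeR adjusted p = 0.000291). Without the cycling monocytes the Ccl12 difference was 0.92 and not called. Ccl9 stood at 510.2 and 499.7 CPM, against 95.2 and 121 CPM (2.14 ± 0.24, edgeR adjusted p = 6.97e-05). Ccl2, the main Ccr2 ligand, was also higher, with 2652 and 2839 CPM, against 421 and 817 CPM (2.10 ± 0.34, edgeR adjusted p = 0.00117). Cxcl14 was the chemokine that fell, with 8.40 and 13.1 CPM in monocytes, against 52.0 and 43.8 CPM (-2.14 ± 0.34, edgeR adjusted p = 0.000871).

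Of 25 tested granule and antimicrobial genes, 12 were higher and none lower (median 1.17). Slpi, an inhibitor of neutrophil proteases, had 553 and 1306 CPM in monocytes, against 23.0 and 35.3 CPM in macrophages (4.80 ± 0.46, edgeR adjusted p = 2.02e-05). Prtn3, the primary granule protease proteinase 3, had 25.2 and 39.4 CPM, against 3.89 and 4.42 CPM (2.96 ± 0.46, edgeR adjusted p = 0.000933). S100a4, a calcium-binding protein of moving cells, had 1765 and 2476 CPM, against 196 and 443 CPM (2.70 ± 0.48, edgeR adjusted p = 0.00195). Neutrophils had 1264 and 2321 CPM of Slpi, and the summed neutrophil markers were 198 and 225 CPM in monocytes, against 177 and 204 CPM in macrophages. Lysozyme 2, Lyz2, did not pass, with 16032 and 17358 CPM in monocytes and 26814 and 20024 CPM in macrophages.

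Among pattern recognition receptors, 12 of 28 were higher and none lower (median 0.57). Trem1, an amplifier of inflammatory signals, had 50.4 and 77.5 CPM in monocytes, against 5.88 and 6.26 CPM in macrophages (3.21 ± 0.47, edgeR adjusted p = 0.000503). Clec4e, the lectin Mincle, had 202 and 308 CPM, against 16.7 and 70.3 CPM (2.73 ± 0.42, edgeR adjusted p = 0.000818). Toll-like receptor Tlr4 did not pass, at 12.9 and 8.35 CPM in monocytes and 14.2 and 9.20 CPM in macrophages.

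Genes of the mature macrophage and of the lysosome were lower in monocytes. The macrophages were picked by UMIs of Ms4a7, Gpnmb, Mmp12, Fabp5 and Fabp4. Those genes were not tested, but the direction for genes that go with them is partly set by the choice of cells. Of 24 tested macrophage maturation genes, 10 were lower in monocytes, against 3.84% of all genes, and 1 was higher (median -0.95). Apoe, which carries lipids, stood at 36663 and 16833 CPM in monocytes, against 110912 and 81819.7 CPM in macrophages (-2.08 ± 0.51, edgeR adjusted p = 0.0161). C1qa, a chain of complement C1q, stood at 1441 and 644 CPM, against 4404 and 4041 CPM (-2.24 ± 0.34, edgeR adjusted p = 0.000681). The Apoe call was lost with DESeq2 (adjusted p = 0.385) and without the library block. Both genes were abundant in the free RNA, with 59428 and 29578 CPM of Apoe and 5594 and 8038 CPM of C1qa, and monocytes of replicate 1, the shallower ones, held more of both than those of replicate 2. Trem2, the lipid receptor of microglia and tissue macrophages, had 1003 and 458 CPM in monocytes, against 2291 and 1762 CPM (-1.68 ± 0.38, edgeR adjusted p = 0.0104). The gene that was higher was Mrc1, the mannose receptor, and without the Xist-positive cells described further on its log2 difference was -0.26. Spp1, osteopontin, had 7551 and 3733 CPM in monocytes and 13812 and 8640.4 CPM in macrophages and did not pass (edgeR adjusted p = 0.168).

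Of 24 tested lysosome genes, 9 were lower and none higher (median -0.67). Glb1, the lysosomal galactosidase, stood at 36.2 and 12.3 CPM in monocytes, against 71.5 and 50.8 CPM in macrophages (-1.54 ± 0.33, edgeR adjusted p = 0.00670). Atp6v0d2, a subunit of the proton pump, stood at 11.6 and 0.398 CPM, against 40.1 and 45.3 CPM (-3.29 ± 0.74, edgeR adjusted p = 0.0107). In the monocytes without macrophage gating genes, 16 lysosome genes and 17 maturation genes were lower, and without the library block 2 and 3 were. The number of all genes called lower also rose and fell under these settings, as given with the comparison above. Leaving out monocytes with macrophage gating genes lowers genes that go with them, so that rise is partly set by the choice of cells.

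Of 24 tested lipid genes, 4 were higher and 3 lower, against 7.03% and 3.84% of all genes, 17 were not called and the median was -0.16. Abca1, which exports cholesterol, had 192 and 72.8 CPM in monocytes, against 397 and 176 CPM in macrophages (-1.25 ± 0.29, edgeR adjusted p = 0.0127). The lipid droplet coat Plin2 had 1036 and 925 CPM in monocytes, against 1915 and 1302 CPM in macrophages (-0.76 ± 0.23, edgeR adjusted p just under the threshold of 0.05), and its call was lost under 5 of 14 alternatives. The Abca1 call was lost without the library block (edgeR adjusted p = 0.345).

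**Figure D3:**
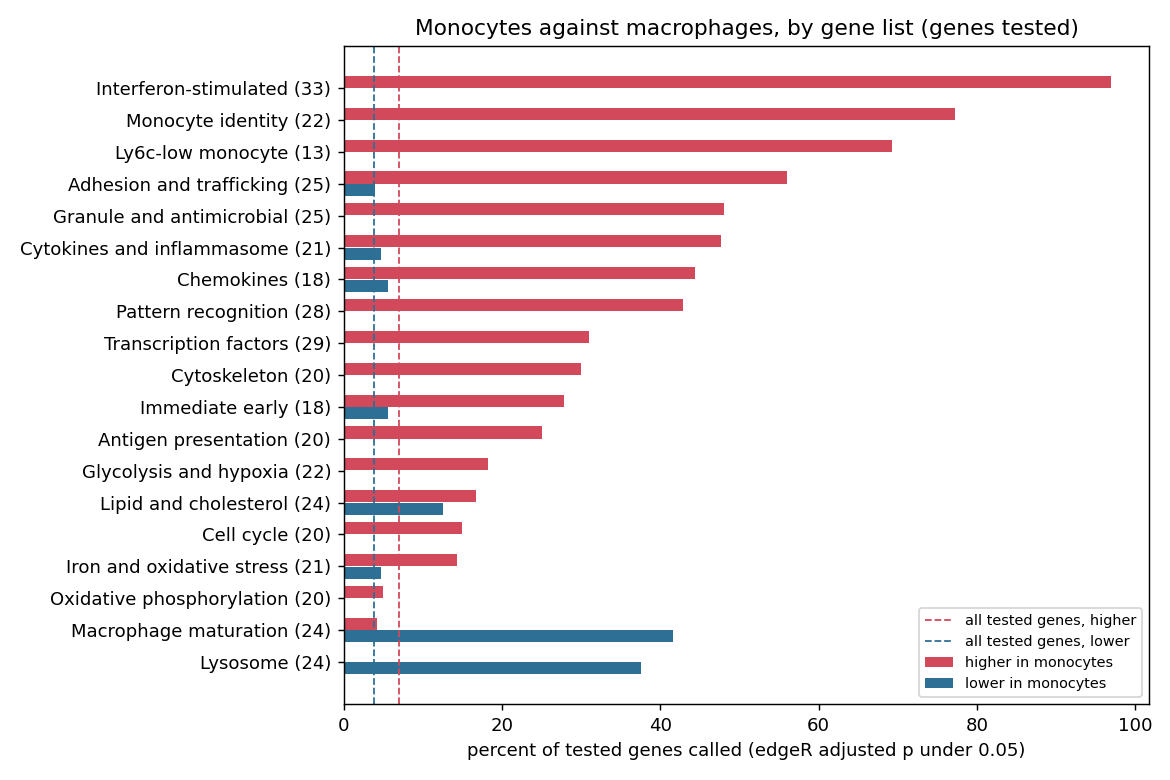
Percent of the tested genes of each of 19 lists that were called higher (red) or lower (blue) in monocytes than in macrophages, with the number tested in brackets. The dashed lines mark the shares among all 8953 tested genes, 7.03% higher and 3.84% lower, and the longest bars are interferon-stimulated genes for higher and macrophage maturation and lysosome genes for lower.

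Lists of energy and other general functions held fewer calls than the interferon list. The shares among all tested genes were 7.03% higher and 3.84% lower, so a single call in a list of this length is near the background. Of 22 glycolysis and hypoxia genes, 4 were higher and none lower, among them Pfkp, a phosphofructokinase, with 45.9 and 57.6 CPM in monocytes, against 15.4 and 16.9 CPM in macrophages (1.59 ± 0.23, edgeR adjusted p = 0.000534). Of 20 respiratory chain genes, 1 was higher (Cycs, cytochrome c, 0.72 ± 0.18) and the median was -0.05. Of 21 iron and oxidative stress genes, 3 were higher and 1 lower. Hmox1, which breaks down haem, did not pass, with 1972 and 3602 CPM in monocytes and 1519 and 2766 CPM in macrophages. Immediate early genes had 5 of 18 higher and 1 lower, and cytoskeleton genes 6 of 20 higher. Of 20 antigen presentation genes, 5 were higher and none lower. They include Tap1, a peptide transporter, with 49.7 and 76.3 CPM in monocytes, against 21.5 and 31.3 CPM (1.19 ± 0.23, edgeR adjusted p = 0.00370), while the MHC class II gene H2-Aa had 122 and 310.1 CPM in monocytes and 72.9 and 773 CPM in macrophages and did not pass.

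Monocytes were next set against 69 and 116 cells that met the same rule but held 3 or more UMIs of Arg1, the enzyme arginase 1. This cut is a fixed number of UMIs, which deeper cells reach more easily. Medians were 3922 and 7251.5 UMIs in the Arg1-positive cells, against 2567 and 6500 UMIs in monocytes. Few genes differed: 5 of 8953 were higher (0.0558%) and 3 lower (0.0335%) in monocytes, and at an unadjusted p under 0.05 there were 694. Cxcl3, a neutrophil-drawing chemokine, had 127 and 151 CPM in monocytes, against 430.4 and 1144 CPM in the Arg1-positive cells (-2.45 ± 0.40, edgeR adjusted p = 0.0420). Hilpda, a lipid droplet protein induced by low oxygen, had 109.8 and 136 CPM, against 456 and 349 CPM (-1.75 ± 0.29, edgeR adjusted p = 0.0420). Basp1, a membrane-bound signalling protein, had 344 and 443 CPM, against 768 and 842 CPM (-1.11 ± 0.19, edgeR adjusted p = 0.0420). Those 3 genes were lower in the monocytes of both libraries.

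The 5 genes higher in monocytes were Ube2c, Mrc1, Ccnb2, Rassf4 and Gm9733, of which the last 3 are named after their values were seen. Ube2c, an enzyme of mitotic exit, had 145 and 79.9 CPM in monocytes, against 33.8 and 1.10 CPM, and Mrc1 had 145 and 74.7 CPM, against 25.3 and 12.1 CPM. Mitotic cyclin Ccnb2 had 22 and 15.9 CPM in monocytes and 0 UMIs in the Arg1-positive cells of both libraries. Rassf4 averaged 75.8 CPM in monocytes and 19.1 CPM in Arg1-positive cells, and Gm9733 33.7 and 4.16 CPM. Without the cycling monocytes the Ube2c difference turned to -3.02 and that of Mrc1 to -0.92, and without the Xist-positive cells 2 genes were higher and none lower. The call rule matters here too, since DESeq2 gave 18 higher and 18 lower.

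Neither Ccr2 nor Ms4a4c passed the test between monocytes and Arg1-positive cells. Ccr2 had 256 and 399 CPM in monocytes and 70.3 and 253 CPM in the Arg1-positive cells (log2 difference 1.01 ± 0.55, edgeR adjusted p = 0.706), and Ms4a4c had 307 and 762 CPM and 256 and 707 CPM (0.08 ± 0.45). None of the 33 interferon genes was called and their median difference was 0.03. For 4-fold changes set into simulated counts this comparison recovered 67.0%, and for 2-fold changes 11.6%, so differences of the smaller size would mostly be missed. The simulation gave every gene the same spread, so recovery may be lower for genes that vary more.

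The comparison with Cd209a-positive cells set monocytes against 30 and 49 cells with at least 2 UMIs of Cd209a, a lectin of dendritic cells, which were not asked to hold the monocyte genes. Among 8953 genes, 372 (4.16%) were higher and 332 (3.71%) lower in monocytes, and the called genes had the same sign in both libraries in 704 of 704 cases. These shares are the background for every count of list genes called against Cd209a-positive cells. A gene with opposite signs is rarely called from 2 library sums, so the agreement in sign adds little to the calls. DESeq2 put the balance at 370 higher and 521 lower. The Cd209a-positive sums are small, 135129 and 464070 UMIs, so genes with few UMIs there are known less well.

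Genes of MHC class II set the Cd209a-positive cells apart. Of 20 antigen presentation genes, 8 were lower in monocytes, against 3.71% of all genes, and 1 was higher. H2-Aa, an MHC class II chain, had 122 and 310.1 CPM in monocytes, against 5735 and 11175 CPM in Cd209a-positive cells (-5.35 ± 0.80, edgeR adjusted p = 0.00105). H2-DMb2, which helps load peptides, had 1.29 and 3.58 CPM, against 207 and 226 CPM (-6.38 ± 0.38, edgeR adjusted p = 2.03e-07). H2-Oa, its modulator, had 3.23 and 1.59 CPM, against 237 and 338 CPM (-7.08 ± 0.40, edgeR adjusted p = 1.53e-07). The class I subunit B2m was the gene that was higher, with 1766 and 2156 CPM in monocytes, against 1103 and 1217 CPM, and its call was lost under 7 of 14 alternatives.

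Further genes that were lower belong to dendritic or lymphoid cells by common use. Klrd1, the lectin-like receptor CD94, had 0.646 and 0.398 CPM (1 UMI in each library) in monocytes, against 688 and 567 CPM (-10.28 ± 0.52, edgeR adjusted p = 1.53e-07). Cd7 had 1 and 0 UMIs in monocytes, and 104 and 112 CPM in Cd209a-positive cells. Mgl2, a galactose-binding lectin, had 1.29 and 0.398 CPM in monocytes, against 126 and 405 CPM (-8.64 ± 0.78, edgeR adjusted p = 4.01e-05). Itgax, the integrin CD11c, had 9.69 and 19.9 CPM, against 104 and 159 CPM (-3.20 ± 0.41, edgeR adjusted p = 0.000368). Markers of other types moved with this comparison: the 7 conventional dendritic cell markers, Cd209a included, summed to 18.1 and 15.9 CPM in monocytes, against 1243 and 1577 CPM in Cd209a-positive cells. The 8 natural killer cell markers, Klrd1 included, summed to 5.17 and 7.16 CPM, against 814 and 668 CPM, with 5 of the 8 at 0 in the Cd209a-positive cells of each library. Their part in the result was not tested. The transcription factors Bhlhe40 (-2.27 ± 0.34), Rel (-2.00 ± 0.22) and Batf3 (-1.84 ± 0.38) were lower as well, with edgeR adjusted p = 0.00105, 9.34e-05 and 0.00746.

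On the other side stood genes for calling further monocytes, handling iron and sensing microbes. Of 18 chemokines, 9 were higher and 1 lower, against 4.16% and 3.71% of all genes. Ccl2 had 2652 and 2839 CPM in monocytes, against 229 and 166 CPM in Cd209a-positive cells (3.84 ± 0.40, edgeR adjusted p = 6.77e-05), and Ccl7 had 1062 and 1027 CPM, against 59.2 and 51.7 CPM (4.30 ± 0.45, edgeR adjusted p = 6.77e-05). Iron and oxidative stress genes had 13 of 21 higher and none lower (median 1.87). Hmox1 had 1972 and 3602 CPM in monocytes, against 148 and 138 CPM (4.27 ± 0.37, edgeR adjusted p = 1.41e-05), and Slc7a11, which imports cystine, had 163 and 309 CPM, against 29.6 and 25.9 CPM (3.22 ± 0.57). Pattern recognition genes had 13 of 28 higher, led by Clec4e, with 202 and 308 CPM in monocytes, against 7.40 and 4.31 CPM (5.84 ± 0.87, edgeR adjusted p = 0.00101). Cebpb, a factor of monocytes and macrophages, was higher by 2.90 ± 0.36 on the log2 scale (edgeR adjusted p = 0.000342).

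Of the 33 interferon genes, 22 were higher than in Cd209a-positive cells and none lower (median 1.89), and 9 were without the library block. Ifi211 had 148 and 297 CPM in monocytes, against 14.8 and 28.0 CPM (3.26 ± 0.56, edgeR adjusted p = 0.00233), and Rsad2, the antiviral enzyme viperin, had 215 and 375 CPM, against 7.40 and 51.7 CPM (2.92 ± 0.59, edgeR adjusted p = 0.00631). Of 24 lysosome genes 10 were higher, and of 24 macrophage maturation genes 10 were higher and 1 lower, but without the monocytes that hold macrophage genes these counts fell to 6 and 2 higher. Ccr2 did not pass, at 256 and 399 CPM in monocytes and 199.8 and 267 CPM in Cd209a-positive cells (0.52 ± 0.58, edgeR adjusted p = 0.679), nor did Ms4a4c, at 307 and 762 CPM and 178 and 213 CPM. Prtn3 and Acod1 had 0 UMIs in the Cd209a-positive cells of both libraries, so no fold is given, and 25.2 and 39.4 CPM and 76.9 and 45.3 CPM in monocytes.

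**Figure D4:**
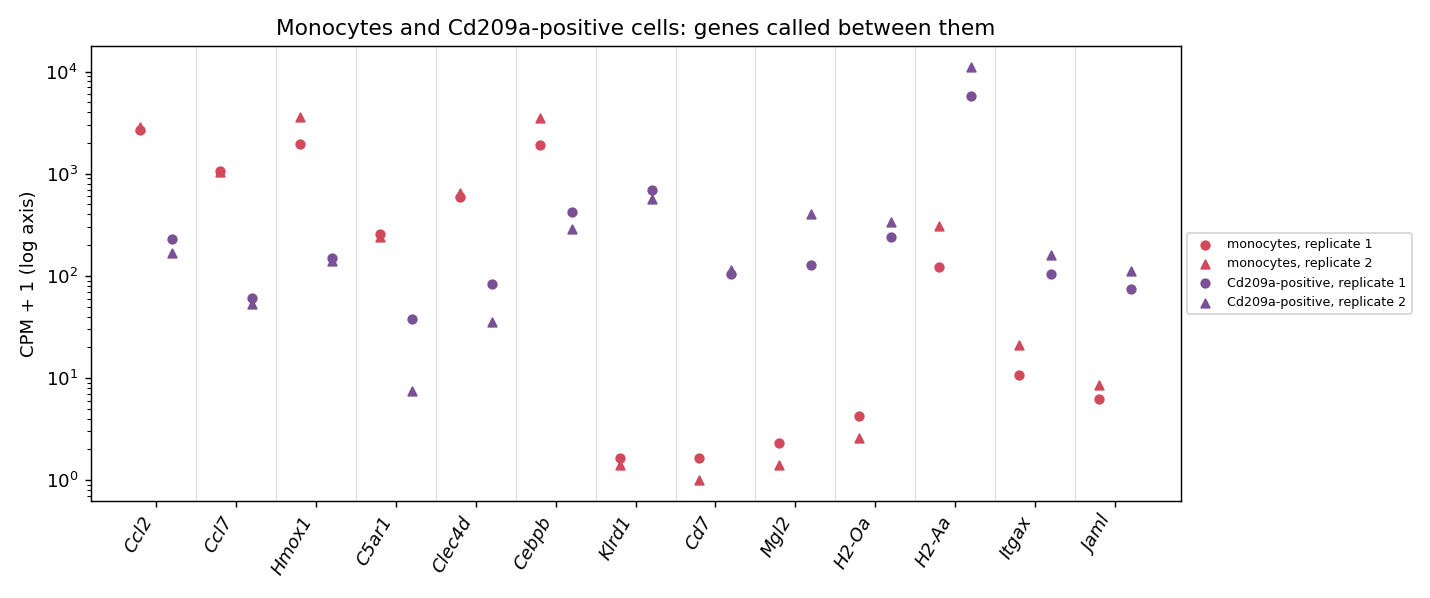
Levels of 13 genes (CPM + 1, log axis) in monocytes, at the left of each gene, and in Cd209a-positive cells, with circles for replicate 1 and triangles for replicate 2. The first 6 genes, such as Ccl2 and Hmox1, were higher in monocytes, and the last 7, such as Klrd1 and H2-Aa, were lower, with no overlap of the libraries in any of them.

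Within the monocytes, levels differed between cells with and without macrophage genes. Of the monocytes, 136 (41.0%, exact 95% interval 35.6 to 46.5%) and 124 (36.2%, 31.1 to 41.5%) also held at least 3 UMIs of the genes that chose the macrophages, with at least 2 detected. They held 66.3% and 41.7% of all monocyte UMIs. The split rests on a fixed number of UMIs, which deeper cells reach more easily. Medians were 4346 and 6982.5 UMIs with the genes, against 2276 and 6301 UMIs without them. Monocytes with these genes had 108 and 202 CPM of Ccr2, against 547 and 539.9 CPM in those without. Il1b stood at 405 and 1058 CPM with the genes, against 2392 and 3043 CPM without them. Apoe went the other way, with 49640.2 and 27195 CPM, against 11186 and 9427 CPM. The doublet caller marked 5 and 14 monocytes, but it marked no cell of replicate 2 by its own threshold, and whether the macrophage genes come from pairs of cells, from free RNA or from the cells themselves was not tested.

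A smaller set carried MHC class II. At 40 or more UMIs in 10000 of Cd74, H2-Aa, H2-Ab1 and H2-Eb1 there were 23 (6.93%) and 31 (9.04%) monocytes, while 294 and 281 had fewer than 10 in 10000. The high cells had 451 and 1458 CPM of Chil3, against 1736 and 3349 CPM in the low cells, and 798 and 1202 CPM of Ly6c2, against 588 and 886 CPM. Thbs1, thrombospondin 1, stood at 764 and 835 CPM in the high cells, against 1644 and 1755 CPM, and Cst3, cystatin C, at 6710.1 and 3750.3 CPM, against 2816 and 2778 CPM. The test planned between these sets was not run, because replicate 1 fell short of the minimum number of cells set for it on the high side.

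**Figure D5:**
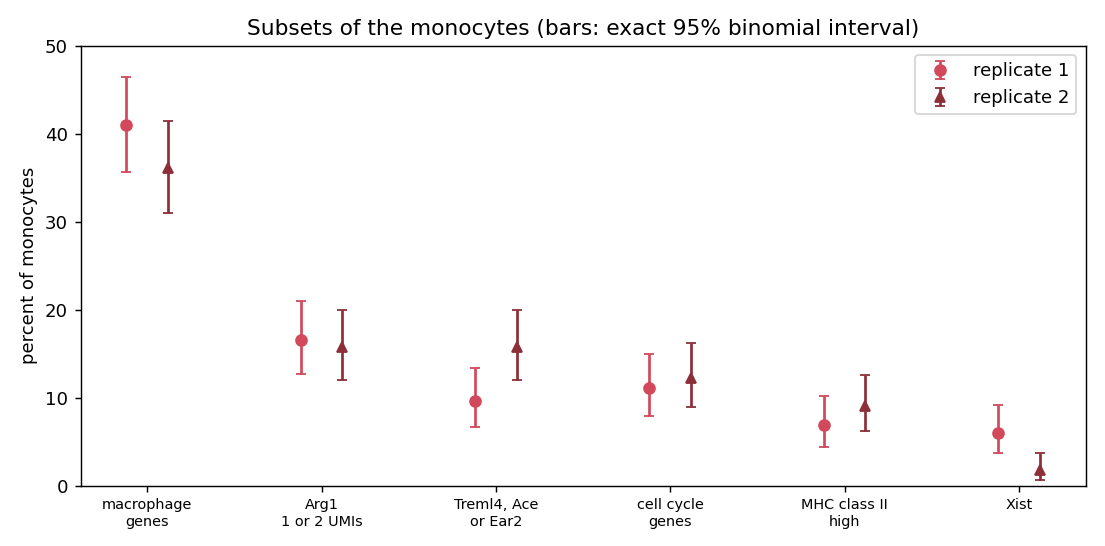
Percent of the monocytes in 6 overlapping subsets, with circles for replicate 1, triangles for replicate 2 and bars for the exact 95% binomial interval, which covers counting error only. The subset with macrophage genes is the largest at 41.0% and 36.2%, and the Xist-positive subset is the smallest in both libraries at 6.02% and 1.75%.

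Cycling cells were picked by a fixed number of UMIs, which deeper cells reach more easily, so their depth is partly set by that choice. At least 2 UMIs over 10 cell cycle genes were held by 37 monocytes of replicate 1 (11.1%) and 42 of replicate 2 (12.2%), with medians of 15465 and 8000.5 UMIs and 33.6% and 22.2% of all monocyte UMIs. Against macrophages, 3 of 20 cell cycle genes were higher and none lower: Ube2c (145 and 79.9 CPM, against 35.3 and 36.4 CPM in macrophages), Cenpa (89.8 and 75.5 CPM, against 37.0 and 37.9 CPM) and Hmgb2 (473 and 385 CPM, against 154 and 253 CPM). The Hmgb2 call was lost under 5 of 14 alternatives, with log2 differences of 0.39 to 1.35, and those of Cenpa and Ube2c were lost or turned under 2 and 6 of them. Without the cycling monocytes 17 of the 20 were lower, which follows from their removal.

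Ube2c stood at 428 and 755 CPM in monocytes with Xist RNA, which is made from an inactive X chromosome and so marks female cells, against 43.1 and 6.61 CPM in the other monocytes. Of the monocytes, 20 (6.02%) and 6 (1.75%) held an Xist UMI, with medians of 19222.5 and 35260.5 UMIs, and they held 26.6% and 9.79% of the monocyte UMIs. A UMI of Ddx3y, Eif2s3y, Uty or Kdm5d, genes of the Y chromosome, was found in 3 of the 20 and 1 of the 6, against 62.0% and 55.8% of the Xist-negative monocytes of at least 5000 UMIs. Of the Xist-positive monocytes, 18 and 6 were cycling and 19 and 5 held Mrc1. Mrc1 stood at 474 and 617 CPM in them, against 25.5 and 15.9 CPM in the Xist-negative monocytes. In the Xist-negative monocytes of at least 5000 UMIs, which are nearer in depth, Mrc1 stood at 44.7 and 17.9 CPM. Chil3 stood at 72.9 and 16.2 CPM in the Xist-positive monocytes, against 733 and 3325 CPM in those deeper Xist-negative ones. Plac8 stood at 226 and 325 CPM in the Xist-positive monocytes, against 188.9 and 1953 CPM, and Ccr2 at 136 and 219 CPM, against 93.4 and 436 CPM. For Plac8 and Ccr2 the libraries thus differ in direction at that depth. Against all Xist-negative monocytes, which in replicate 1 are mostly shallower, both genes were lower in both libraries, with 1207 and 1975 CPM of Plac8 and 299.9 and 419 CPM of Ccr2 in the Xist-negative cells. The 6 markers of border-associated macrophages, Mrc1 and Pf4 among them, summed to 1659.7 and 562 CPM in all monocytes, against 1145 and 1322 CPM in macrophages, and Pf4 stood at 3047 and 2887 CPM in the Xist-positive monocytes, against 842 and 187 CPM in the Xist-negative ones.

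Without the Xist-positive cells of every kind, Mrc1 was no longer higher than in macrophages (log2 difference -0.26), nor was Ube2c (-0.73), and 766 genes were higher and 427 lower. Without these cells 19 of 22 classical, 10 of 13 Ly6C-low and 32 of 33 interferon genes were higher, and 8 of 18 tested cell cycle genes were lower. The labels do not give the sex of the mice, and where the Xist-positive cells come from was not tested.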

How the data were processed

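Leukocytes sorted from the ischemic mouse brain were profiled in 2 libraries with Chromium 3′ chemistry, version 3. Cell Ranger 4.0.0, STAR 2.5.1b and Seurat 4 are listed as tools in the submitters' processing notes, which also list mm10, GRCm38 and GRCh38 as builds without saying what each was used for. The deposited values are raw UMI counts per gene and barcode, per the file headers written by Cell Ranger, and no filter on cells was applied before deposit as far as the barcodes show, since the files also hold barcodes of few UMIs. Of 31053 gene IDs, 30934 (99.6%) matched GENCODE vM21 (GRCm38), from which positions were taken, and promoters came from RefSeq (GRCm38.p6).

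Cells were picked by the thresholds given with each kind of cell, and the monocytes, the gene lists and the tests were chosen with earlier results of these data known. Raw UMIs were summed per library for 6 disjoint kinds of cell (monocytes, Arg1-positive, Cd209a-positive, macrophages, microglia and neutrophils). The sums were tested in 1 fit with edgeR 4.0.16 (R 4.3.3; TMM, filterByExpr, quasi-likelihood test) with the library as a block and Benjamini-Hochberg adjustment over 8953 genes at 0.05. The 21 genes used to pick cells were not tested. The standard error is the log2 fold change divided by the root of the F statistic. The pairing comes from the design, since both sides of each comparison are cells of the same libraries, and deviations from the means of the 2 libraries correlated between monocytes and the other kind across 8953 genes (r = 0.323 for Arg1-positive cells, 0.162 for Cd209a-positive cells and 0.336 for macrophages), where genes are not independent replicates. Genes were named by a rule: the 5 marker genes, the 6 called genes with the largest and the 6 with the smallest change at 100 CPM or more on the higher side, and up to 3 called genes a direction from each of 19 lists at 30 CPM or more. Apart from the markers, the rule took only genes with the same sign in both libraries. Agreement of the libraries in those genes is thus part of the rule. Further list members were named for their role after values were seen.

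Tested on simulated counts of 8409 genes, the fit recovered 86.6%, 67.0% and 46.4% of 4-fold changes and 20.0%, 11.6% and 3.16% of 2-fold changes against macrophages, Arg1-positive and Cd209a-positive cells. Apart from the changed genes, every kind of cell was given the same gene shares, and all genes the same fixed spread. Recovery in the real data may be lower for genes that vary more. Doublets stayed in, and leaving out those marked by Scrublet (scanpy 1.11.5) was an alternative. Its own threshold marked 1426 of 15050 cells in replicate 1 and 0 of 7910 in replicate 2, where the caller did not work and the 501 highest scores were removed instead. DESeq2 1.42.0 was the other count test. Python 3.11.15 with scipy 1.17.1 gave the exact binomial intervals, which cover counting error only. Reads shared by near-identical genes (Ly6c1 and Ly6c2, the Ifit, Slfn, Ifi200 and H2 families) cannot be told apart in these counts. A few members of the gene lists are counted but not reported here by name.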

Additional observations from a re-analysis of the deposited data

Results flagged for a closer look

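A few barcodes that no comparison used met most of the monocyte rule. Counted were barcodes with 500 or more but under 1000 UMIs and no more than 10% of UMIs mitochondrial. The minimum of 500 genes was not applied to them. Of the 1134 such barcodes in replicate 1, 4 (0.353%) met the rest of the monocyte rule, and of the 236 in replicate 2 none did. The 4 barcodes held 0 UMIs of Ccr2. No control sample exists to set this against, and the count is just above the 3 that a count of 0 allows.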

How the results depend on the processing

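Each alternative changed 1 choice, except the stricter rule, which asked for at least 10 gating UMIs and for all 3 genes at once. Those that leave out monocytes with macrophage genes, cycling monocytes, Xist-positive cells or cells under 2000 UMIs were chosen after seeing the data. The share of monocytes moved to 0.598% and 2.26% of cells with the stricter rule, 1.84% and 3.65% with Arg1 at 0, 1.30% and 2.77% without monocytes that hold macrophage genes, 1.96% and 3.81% without cycling monocytes, and 3.84% in replicate 2 with a microglia score under 5. Against macrophages, 396 genes were higher and 111 lower with no replicate block, which removes the pairing of the sums by library, and 973 and 741 without monocytes that hold macrophage genes. Against Cd209a-positive cells, 206 were higher and 214 lower with no replicate block, 642 higher with no filter on low counts and 521 lower with DESeq2. Against Arg1-positive cells the few calls depended on most settings: 0 higher and 0 lower with the stricter rule, without monocytes holding lymphoid markers, with no replicate block and in cells of 2000 UMIs or more. There were 2 higher and 0 lower without cycling or without Xist-positive cells, 8 higher with the lower microglia score, 11 and 11 with Arg1 at 0, 5 lower without marked doublets, 101 and 50 with no filter, 18 and 18 with DESeq2, and 52 and 85 without monocytes that hold macrophage genes. Mrc1 against macrophages turned to -0.64 without macrophage genes, -1.80 without cycling and -0.26 without Xist-positive cells. Ube2c turned to -0.58 with the stricter rule, -4.70 without cycling and -0.73 without Xist-positive cells, and Cenpa to -0.45 without cycling. Without cycling monocytes Ube2c turned to -3.02 and Mrc1 to -0.92 against Arg1-positive cells, and Ube2c to -3.66 against Cd209a-positive cells. Ms4a4c, uncalled against Arg1-positive cells, turned to -0.085 with the stricter rule and -0.13 with the lower microglia score, and Lpl to -0.17 against Cd209a-positive cells without macrophage genes. Other than the removal of cycling cells, which takes out cell cycle genes by construction, the cause was not tested. Hmgb2 against macrophages lost its call without cycling (0.39), without Xist-positive cells (0.61), without lymphoid-marker cells (0.71), with the stricter rule (0.84) and with no replicate block. Of the 142 named differences, 46 lost their call with no replicate block, 1 with the size factors of DESeq2 in edgeR and 0 without marked doublets. With 1 library left there are no residual degrees of freedom, so counts of calls have no value without replicate 1 or 2, and the planned test between MHC class II high and low monocytes was not run. Depth limits what replicate 1 shows, since its monocytes had a median of 2567 UMIs, against 6500 in replicate 2.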

Other observations

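Xist RNA was not confined to monocytes. An Xist UMI was found in 201 of the 15050 cells of replicate 1 (1.34%) and in 20 of the 7910 of replicate 2 (0.253%). Macrophages held 107 of these cells in replicate 1 and 0 in replicate 2, and microglia held 8 (0.139%) and 7 (0.137%). In replicate 1 the Xist-positive cells had 405 CPM of Mrc1, against 17.9 CPM in the other cells, and 123 of the 201 were cycling. These values were looked up after the monocytes' Mrc1 and cell cycle values had been seen, and no comparison was planned on them.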
